A study of Mus musculus with 24 samples.

Results

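The 10 genes described here encode secreted neurotrophic factors and the cell surface receptors that bind them. The 5 ligands are Bdnf, Cntf, Lif, Hbegf and Gdnf, and the 5 receptor genes are Ntrk2, Cntfr, Lifr, Il6st and Egfr. They were taken by gene symbol, and all 10 were present among the 46603 annotated mouse genes (126602 features with the loci assembled from the reads) in the count data. Of the 10, 8 reached a base mean of at least 10, which is the mean normalized count over all organoids, and were tested. Lif and Gdnf did not and are given by their counts.

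BDNF is a neurotrophin that acts through the receptor tyrosine kinase TrkB, the product of Ntrk2. CNTF and LIF are cytokines of the interleukin-6 family whose receptors share the chain gp130, the product of Il6st, and signal through JAK kinases and STAT3; LIF needs the LIF receptor, and CNTF needs it together with the CNTF receptor alpha chain. In the retina these cytokines are known as survival factors for photoreceptors and as inducers of a reactive state of Müller glia, the main glial cell of the retina, and HB-EGF acts through the EGF receptor, which is linked to proliferation of progenitors and Müller glia.

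RNA was sequenced from individual mouse retinal organoids (MROs), small retinal tissues grown in culture from the wildtype mouse embryonic stem cell line E14Tg2a. The groups were MROs sampled at D20, D22, D25 and D30 of differentiation, with 6 organoids and 6 libraries at each timepoint. All 24 had received water as solvent per the labels, and the paper's culture protocol also gave a synthetic retinoid analog before D20. Sample titles at D22, D25 and D30 carry the word Ctrl, while those at D20 do not. All 24 came from 1 independent experiment, so the p-values measure the spread between organoids of that experiment. Libraries were made from total RNA after removal of ribosomal RNA.

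Between 13634846 and 19477108 reads per organoid were assigned to a feature. Levels are given as normalized CPM, which are counts scaled to library size with TMM factors, and 3 counts in an organoid corresponded to 0.166 to 0.216 normalized CPM. This floor covers counting error only. Changes are log2 fold changes with their standard error (SE) from the quasi-likelihood test of edgeR, and a gene was called when its p, adjusted over all 46949 tested features, was below 0.01.

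Fewer of these genes were called from D20 to D22 than in either later step, and the same held for all annotated genes. From D20 to D22, 1 of the 8 tested genes was called, Lifr, beside 3.32% of all 16253 tested annotated genes. From D22 to D25 the called genes were Ntrk2, Il6st and Cntfr, 3 of 8 beside 10.2%, and from D25 to D30 they were Bdnf, Ntrk2 and Il6st, 3 of 8 beside 7.38%. Over the whole interval from D20 to D30, 4 genes rose (Bdnf, Ntrk2, Lifr and Il6st) beside 25.1% of annotated genes and 1 fell (Cntfr) beside 16.7%, which together is 5 of 8 beside 41.8%. A joint test of any difference among the 4 timepoints called 6 of 8, adding Cntf, beside 43.9%. The base mean of Cntf was 13.3, near the minimum of 10, and was raised by D30. Cntf had 66, 48 and 51 counts in total at D20, D22 and D25, against 167 at D30. The members' median log2 fold change from D20 to D30 was 1.12, against 0.10 over all annotated genes tested. In bulk RNA from whole organoids, more cells of a type and more RNA per cell cannot be told apart.

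The organoids of neighbouring timepoints overlapped for most genes. No member separated D20 from D22 without overlap, while 4.74% of annotated genes did. D22 and D25 were separated by 2 members (Cntfr and Il6st; 9.87% of annotated genes), D25 and D30 by 3 (Cntf, Il6st and Hbegf; 7.52%) and D20 and D30 by 3 (Cntfr, Lifr and Il6st; 29.7%).

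**Figure D1:**
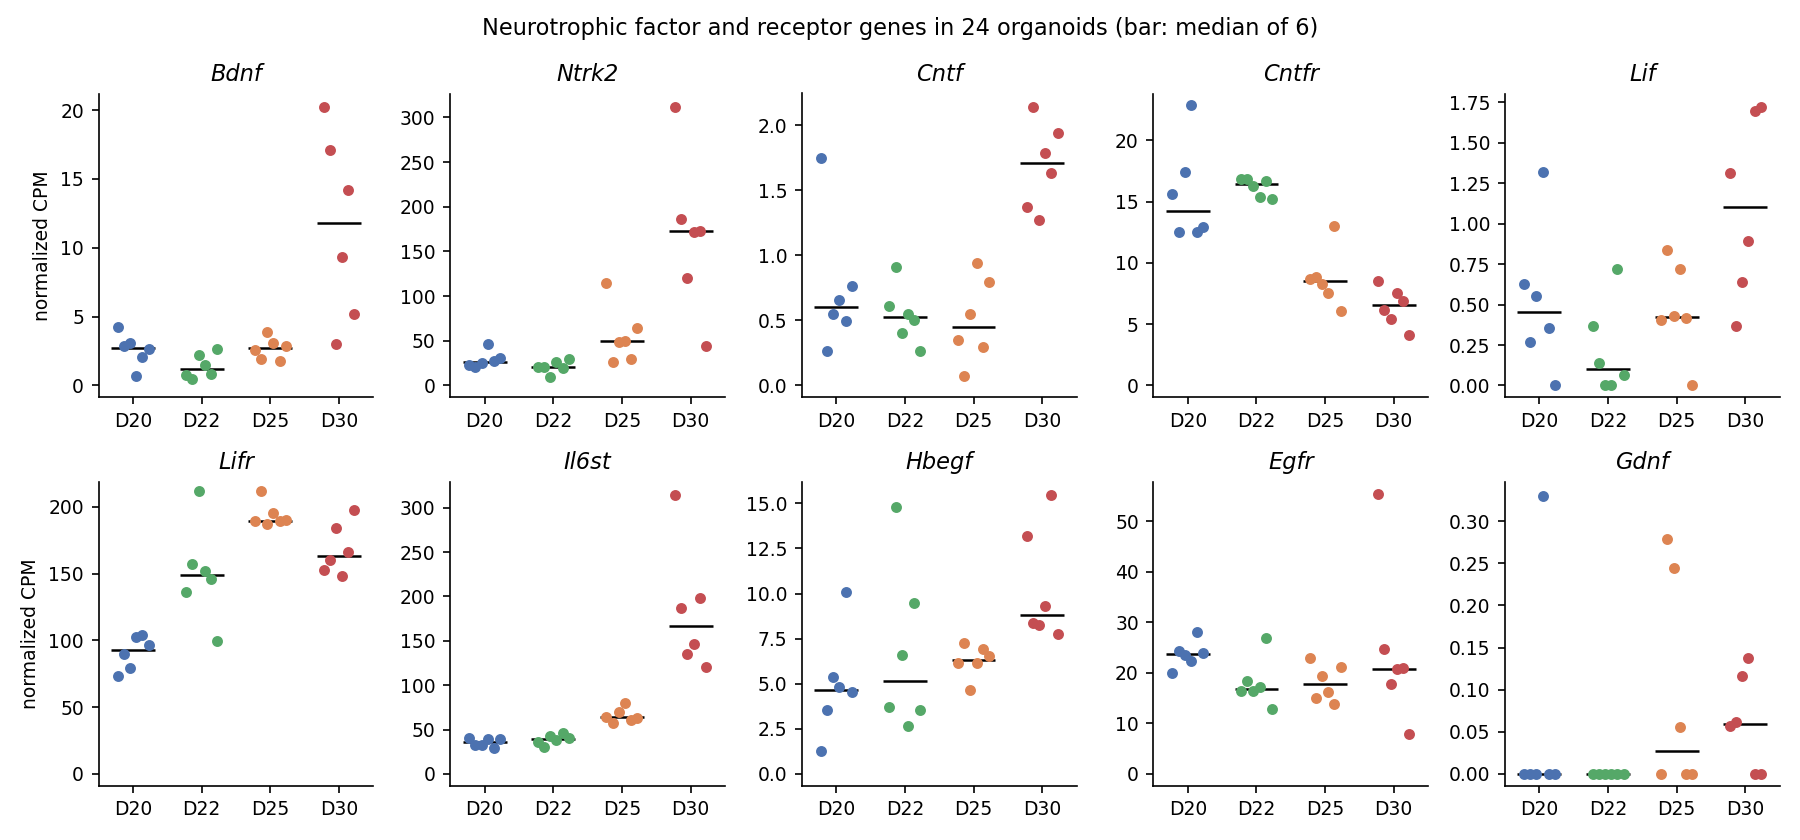
Normalized CPM (vertical axis, a separate scale for each gene) of the 10 genes in each of 24 organoids (points), by timepoint, with the median of 6 organoids as a bar. Il6st stepped up between D22 (median 39.3), D25 (63.9) and D30 (167), Cntfr stepped down between D22 and D25, and 1 D30 organoid stood apart for Egfr at 55.4.

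Among the ligands, Bdnf, the neurotrophin, was low until D25 and rose at D30. At D20 its lowest, median and highest values were 0.660, 2.76 and 4.27 normalized CPM, and at D22 they were 0.488, 1.18 and 2.66. At D25 they were 1.78, 2.71 and 3.85, and at D30 they were 3.01, 11.8 and 20.2. Of the 6 D30 organoids, 5 lay above every D25 organoid, while the sixth, replicate 3, lay within the D25 range. From D25 to D30 Bdnf rose by 2.096 on the log2 scale (SE 0.41, adjusted p = 0.000988), a 4.28-fold change. The changes from D20 to D22 (-0.87, adjusted p = 0.283) and from D22 to D25 (0.92, adjusted p = 0.176) were not called. Bdnf (ENSMUSG00000048482) lies on chromosome 2 from 109674700 to 109727007 of GRCm38, and 14.4% of its exon bases lie opposite the antisense gene Gm45346. The libraries were strand-specific, but whether the counting used the strand is not given in the sources used here, so reads of that stretch are uncertain.

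Bdnf has several alternative starts, each with its own first exon, and 7 of them have a promoter entry in RefSeq (GRCm38.p6). The counts add all of them up, so the start behind the rise at D30 was not resolved. The 250 bases before each start were searched on both strands for TTCNNNGAA, the letters bound by STAT factors, for TGACG, which reads CGTCA on the other strand and is the core of the cyclic AMP response element, and for its full form TGACGTCA, which contains the core. Of the 7 Bdnf windows, 1 held TTCNNNGAA and 1 held the core. Among 32851 promoters of the same length, 7.02% held TTCNNNGAA, 17.8% the core and 1.55% the full form. The windows with a match are shown for Bdnf because it rose late, and that of Il6st is shown because it had the smallest adjusted p of the members over the whole interval. Capitals mark the matches, which start 122 and 35 bases before the start in the Bdnf windows, and the Il6st window held none. The Bdnf windows lie on the plus strand at chr2:109674450-109674699, in an intron of Gm45346, and at chr2:109692186-109692435, in an intron of Bdnf itself, and that of Il6st, also on the plus strand, at chr13:112463820-112464069, outside any annotated gene.
Bdnf window with TTCNNNGAA: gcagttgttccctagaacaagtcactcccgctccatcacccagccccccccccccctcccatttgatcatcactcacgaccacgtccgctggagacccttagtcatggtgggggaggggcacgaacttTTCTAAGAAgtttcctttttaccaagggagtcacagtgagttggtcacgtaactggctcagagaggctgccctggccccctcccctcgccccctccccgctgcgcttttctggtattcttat
Bdnf window with the CGTCA core: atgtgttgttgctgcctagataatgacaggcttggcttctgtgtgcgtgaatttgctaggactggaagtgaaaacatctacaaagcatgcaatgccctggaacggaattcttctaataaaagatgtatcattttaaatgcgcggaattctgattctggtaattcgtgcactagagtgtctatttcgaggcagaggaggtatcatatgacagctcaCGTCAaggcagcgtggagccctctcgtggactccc
Il6st window: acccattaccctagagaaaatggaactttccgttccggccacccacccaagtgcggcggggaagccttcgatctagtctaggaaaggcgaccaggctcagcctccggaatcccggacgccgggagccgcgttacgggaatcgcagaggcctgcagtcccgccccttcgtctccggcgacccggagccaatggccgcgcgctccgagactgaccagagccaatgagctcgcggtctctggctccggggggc
Of the 10 genes, 9 were searched in this way over 22 windows, and apart from Bdnf only 1 of the 2 Gdnf windows held a match, to the TGACG core.

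Cntf, the ciliary neurotrophic cytokine, stayed near the floor until D25. Its counts ranged from 4 to 25 at D20, from 4 to 13 at D22, from 1 to 17 at D25 and from 22 to 35 at D30. In normalized CPM the medians were 0.605, 0.525, 0.449 and 1.71. Every D30 organoid, from 1.27 to 2.14 normalized CPM, lay above every D25 organoid, from 0.0697 to 0.941, but 1 D20 organoid reached 1.75. The change from D25 to D30 was 1.73 on the log2 scale (SE 0.48) with an adjusted p of 0.024 (0.00375 and so called with DESeq2), and that from D20 to D30 was 1.17 (SE 0.47, adjusted p = 0.0519). The joint test called Cntf (adjusted p = 0.00775), and the call was lost in 14 of 24 fits that each left out 1 organoid. Cntf (chromosome 19 from 12763660 to 12765632) shares 847 of its 1073 exon bases with Zfp91 on the same strand, and reads that fall on both genes can be left out of the counts as ambiguous. Such reads were 0.814% to 1.18% of the assigned and ambiguous reads of an organoid, and how many of them came from Cntf was not tested.

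Lif, the cytokine leukemia inhibitory factor, ranged from 0 to 20 counts in a D20 organoid, 0 to 10 in D22, 0 to 13 in D25 and 6 to 31 in D30. The medians were 6.5, 1.5, 7 and 18 counts. Every D30 organoid was above 3 counts, against 5, 2 and 5 of 6 at D20, D22 and D25. When no filter on low counts was set, the change of Lif from D20 to D30 was 1.07 on the log2 scale (SE 0.75, adjusted p = 0.349).

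Hbegf, the heparin-binding ligand of the EGF receptor (chromosome 18 from 36504927 to 36515805), varied widely between organoids at D20 and D22. Its lowest, median and highest values were 1.26, 4.68 and 10.1 normalized CPM at D20 and 2.67, 5.18 and 14.8 at D22. They were 4.64, 6.33 and 7.25 at D25 and 7.76, 8.83 and 15.5 at D30. All 6 D30 organoids lay above all 6 of D25, while the D30 range overlapped with those of D20 and D22. The change from D25 to D30 was 0.73 on the log2 scale (SE 0.35, adjusted p = 0.262), and from D20 to D30 it was 1.07 (SE 0.35, adjusted p = 0.0163). The latter passed the threshold with DESeq2 (adjusted p = 0.00356), without a filter on low counts (0.00785) and without D20 replicate 5 (0.00226).

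Gdnf, the glial cell line-derived factor that signals through GFRA1 and RET, was at 0 in most organoids. It had 5 counts in total at D20, all in 1 organoid, 0 at D22, 9 at D25 and 6 at D30. Only 1 organoid of D20 and 2 of D25 exceeded 3 counts, so Gdnf was at or near the floor at all 4 timepoints.

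**Figure D2:**
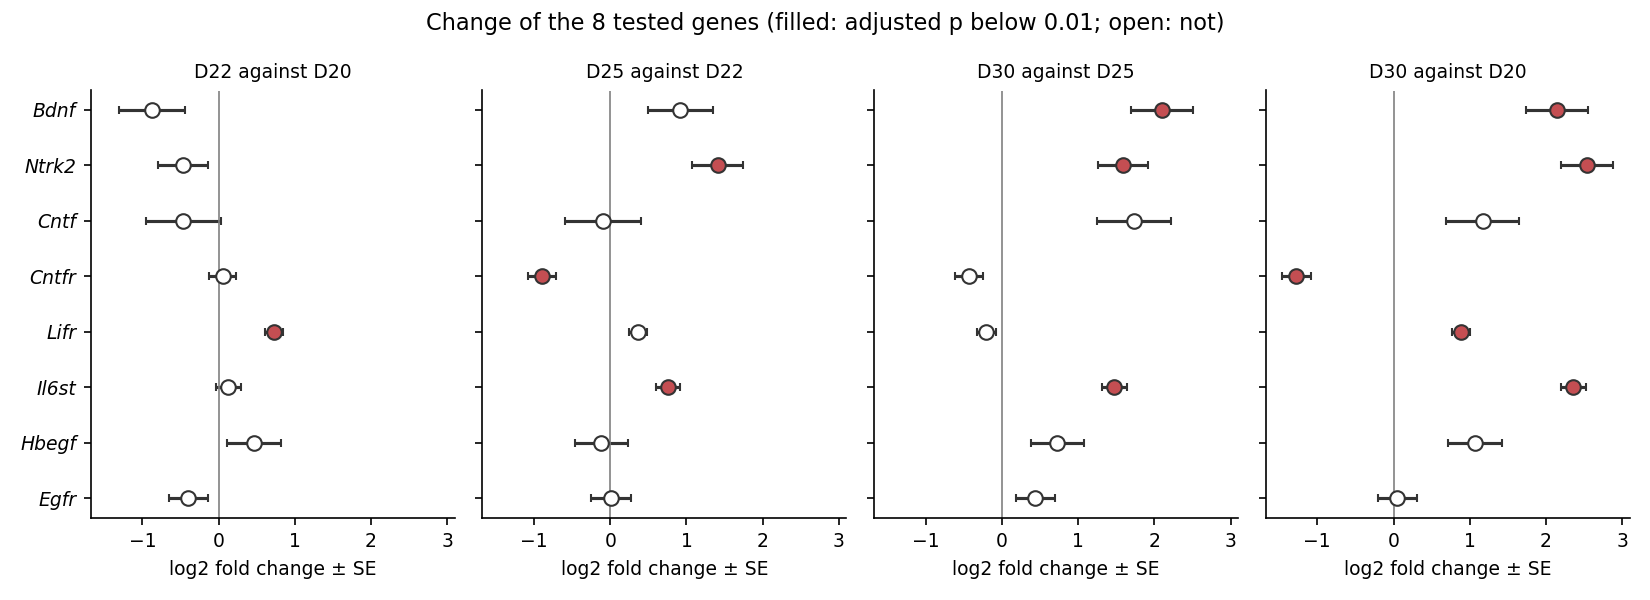
Log2 fold change (horizontal axis, with its standard error) of the 8 tested genes in the 4 comparisons. Filled points passed an adjusted p of 0.01, and between D25 and D30 these were Bdnf at 2.096, Ntrk2 at 1.59 and Il6st at 1.48.

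Among the receptors, Ntrk2, which encodes TrkB, rose in both steps after D22. At D20 its lowest, median and highest values were 20.7, 26.4 and 46.2 normalized CPM, and at D22 they were 9.12, 20.9 and 29.3. At D25 they were 26.8, 49.6 and 114, and at D30 they were 44.6, 172 and 312. In each of these steps 5 of the 6 later organoids exceeded every earlier one. Ntrk2 (ENSMUSG00000055254, chromosome 13 from 58806569 to 59133970) rose by 1.41 from D22 to D25 (SE 0.33, adjusted p = 0.005) and by 1.59 from D25 to D30 (SE 0.33, adjusted p = 0.00189). From D20 to D30 it rose by 2.54 (SE 0.34, adjusted p = 5.07e-07), or 5.82-fold. The step to D25 lost its call without D25 replicate 1, the highest organoid of that day, at a change of 1.07 and an adjusted p of 0.026. It was also lost, at changes close to the full one, without D22 replicate 1 (1.41, adjusted p = 0.0128), D22 replicate 3 (1.25, 0.0119), D22 replicate 5 (1.39, 0.0135) or D25 replicate 6 (1.38, 0.0118). The step to D30 was not called when only these 2 timepoints were fitted (1.59, adjusted p = 0.0126). Ntrk2 gives a full-length kinase and truncated forms without the kinase domain, and gene counts do not separate them.

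Il6st, the shared signalling chain gp130, rose in both steps after D22 as well. Its lowest, median and highest values were 29.7, 36.2 and 40.4 normalized CPM at D20, and 30.5, 39.3 and 45.9 at D22. They were 56.9, 63.9 and 80.3 at D25, and 121, 167 and 315 at D30. The 6 organoids of D25 all exceeded the highest one of D22, and those of D30 the highest one of D25. Il6st (ENSMUSG00000021756, chromosome 13 from 112464070 to 112510086) rose by 0.76 from D22 to D25 (SE 0.16, adjusted p = 0.00197), by 1.48 from D25 to D30 (SE 0.16, adjusted p = 2.2e-07) and by 2.36 over the whole interval (SE 0.17, adjusted p = 1.35e-12), or 5.14-fold.

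Lifr, the LIF receptor chain, took another course and rose before D25. Its lowest, median and highest values were 73.2, 93.0 and 104 normalized CPM at D20, and 99.4, 149 and 212 at D22. They were 187, 189.5 and 211 at D25, and 148, 163 and 198 at D30. Of the 6 D22 organoids, 5 lay above every D20 organoid, and 5 of the 6 D30 organoids lay below every D25 organoid, a change that was not called. Lifr (ENSMUSG00000054263, chromosome 15 from 7090614 to 7197489) rose by 0.73 from D20 to D22 (SE 0.12, adjusted p = 0.000337). The following changes were 0.36 (SE 0.12, adjusted p = 0.0433) and -0.20 (SE 0.12, adjusted p = 0.401). Without D22 replicate 3, its highest D22 organoid, the change from D22 to D25 was 0.48 with an adjusted p of 0.00319.

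Cntfr, the alpha chain that binds CNTF and has no signalling domain of its own, was the only member that fell. Its lowest, median and highest values were 12.5, 14.3 and 22.9 normalized CPM at D20, and 15.2, 16.5 and 16.9 at D22. They were 6.04, 8.50 and 13.0 at D25, and 4.16, 6.55 and 8.57 at D30. All D25 organoids lay below all D22 organoids. Cntfr (ENSMUSG00000028444, chromosome 4 from 41657498 to 41697089) fell by 0.89 on the log2 scale from D22 to D25 (SE 0.18, adjusted p = 0.00156) and by 1.27 from D20 to D30 (SE 0.19, adjusted p = 2.16e-06). Its change from D25 to D30 was -0.43 (SE 0.19, adjusted p = 0.194). Thus the chains of the CNTF receptor had 3 courses, with Lifr up by D22, Cntfr down by D25 and Il6st up at D25 and D30.

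Egfr, the EGF receptor, was not called in any comparison. Its lowest, median and highest values were 20.0, 23.7 and 28.2 normalized CPM at D20, 12.8, 16.8 and 26.8 at D22, 13.9, 17.8 and 23.04 at D25, and 7.82, 20.8 and 55.4 at D30. The spread was widest at D30, where replicate 1 stood at 55.4, replicate 6 at 7.82 and the other 4 between 17.8 and 24.7. The change of Egfr from D20 to D30 was 0.05 on the log2 scale (95% interval -0.47 to 0.57, adjusted p = 0.898), and without D30 replicate 1 it was -0.36 (adjusted p = 0.187). With annotated genes only it was -0.07 (adjusted p = 0.823).

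**Figure D3:**
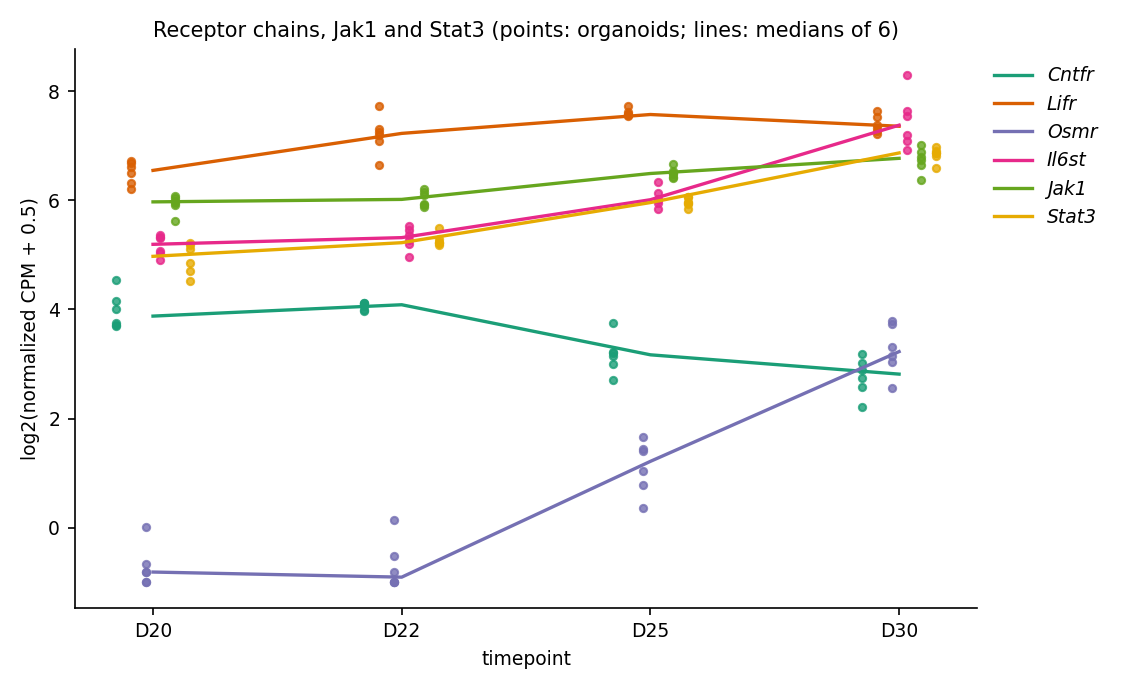
Log2(normalized CPM + 0.5) of the receptor chains Cntfr, Lifr, Osmr and Il6st and of Jak1 and Stat3 in each organoid (points), with lines through the medians of 6. Median Osmr climbed from 0.0360 (D22) over 1.84 (D25) to 8.88 (D30) normalized CPM, while Cntfr declined.

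Levels of different genes were compared per kilobase of merged exons. At D20 the order by mean was Lifr (8.44 normalized CPM per kilobase), Cntfr (5.63), Il6st (3.22), Egfr (2.09) and Ntrk2 (1.49), followed by Hbegf (1.02), Cntf (0.698), Bdnf (0.418), Lif (0.120) and Gdnf (0.0150). With these lengths the receptors lay above the ligands at D20. The place of Cntf is uncertain at every timepoint, since 847 of its 1073 exon bases are shared with Zfp91. Reads there can be left out of the counts, which would make its value per kilobase too low. Cntfr and Il6st, and Il6st and Egfr, had ranges that did not overlap, while the ranges of the other neighbours in this order did. At D30 Il6st (16.6) and Lifr (15.6) stood first with overlapping ranges, Il6st being higher in 3 of 6 organoids, and Ntrk2 (8.70), whose range overlapped with that of Lifr, had passed Cntfr (2.33) in 6 of 6. Egfr (2.17), Hbegf (2.15), Bdnf (1.85) and Cntf (1.58) followed with ranges that overlapped between neighbours, and Lif (0.254) and Gdnf (0.0169) were lowest, each separated from the gene above it. With the length of the longest transcript in place of merged exons, 4 of the 10 genes kept their place in the D30 order, with Ntrk2 (19.2) above Lifr (17.4) and Hbegf (3.60) above Cntfr (3.24).

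**Figure D4:**
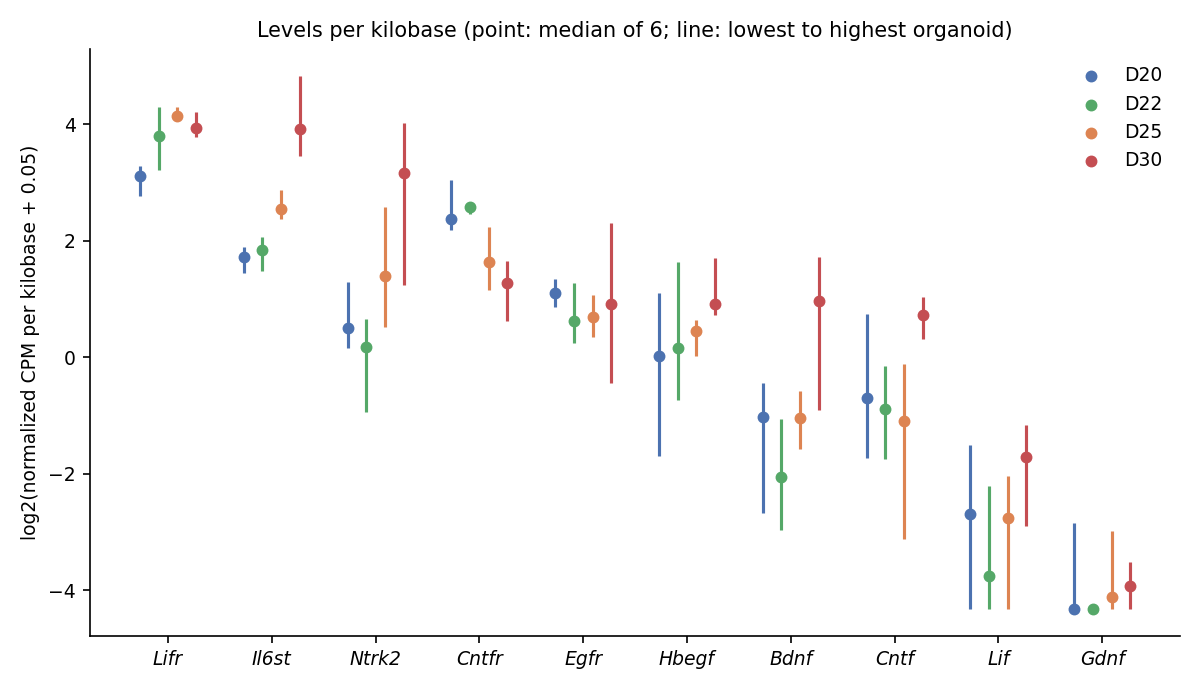
Log2(normalized CPM per kilobase + 0.05) of the 10 genes at each timepoint, with the median of 6 organoids as a point and the lowest to highest organoid as a line. At D20 the 5 receptor genes lie above the 5 ligands by their means over merged exons, and at D30 Il6st and Lifr have the highest means. The value of Cntf may be too low, since most of its exon bases are shared with Zfp91.

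Several cell type markers moved with these genes. Of 11 markers of Müller glia, 8 rose and 1 fell from D20 to D30. Their summed level had medians of 836 (722 to 974), 834 (783 to 878), 1154 (1111 to 1431) and 2852 (1551 to 4733) normalized CPM at the 4 timepoints, with the lowest and highest organoid in brackets, and the most abundant over all organoids was Apoe, a lipid carrier, at medians of 164, 182, 271 and 1119. Of 6 astrocyte markers, 5 were tested and all 5 rose, with summed medians of 31.8, 26.2, 133 and 898 normalized CPM. Over all organoids the most abundant was Gfap, the intermediate filament of astrocytes and reactive Müller glia, which led the list at D25 and D30 (medians 90.6 and 644) but not at D20 and D22 (5.19 and 4.08). No gene of either list was at 0 in every organoid. The untested astrocyte marker, Pax2, had 54 counts over all organoids and was at 0 in 14 of them. Aqp4 is in both the Müller glia and the astrocyte list, so the sums of these lists are not independent. The paper states that MRO systems lack astrocytes, and whether any were present here was not tested. Among D30 organoids the Müller glia sum was 4733, 2835, 2369, 2869, 3683 and 1551 normalized CPM in replicates 1 to 6. Il6st in the same organoids was 315, 187, 135, 146, 198 and 121, and Ntrk2 was 312, 186, 119.8, 172, 173 and 44.6. Replicate 1 was thus highest and replicate 6 lowest for the glial sum, Il6st and Ntrk2, and the same held for Egfr and for Cntfr (8.57 and 4.16), the member that fell over time. The astrocyte sum was 2822, 989.9, 408, 806, 2533 and 174 in the same order, and Bdnf was 20.2, 17.1, 3.01, 9.36, 14.2 and 5.21. Within D25 the organoids did not match in this way. The glial sum was highest in replicate 3 (1431) and lowest in replicate 6 (1111). Il6st was highest in replicate 4 (80.3) and Ntrk2 in replicate 1 (114), and both were lowest in replicate 2 (56.9 and 26.8). At D22, too, the organoids highest and lowest for the sum were not those for Il6st or Ntrk2. At D20 they matched in part. Replicate 4 was highest for the sum (974) and Ntrk2 (46.2), and replicate 5 was lowest for the sum (722) and Il6st (29.7). Il6st was highest in replicate 1 (40.4) and Ntrk2 lowest in replicate 2 (20.7). The part of the glial markers in the rises of these genes was not tested.

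**Figure D5:**
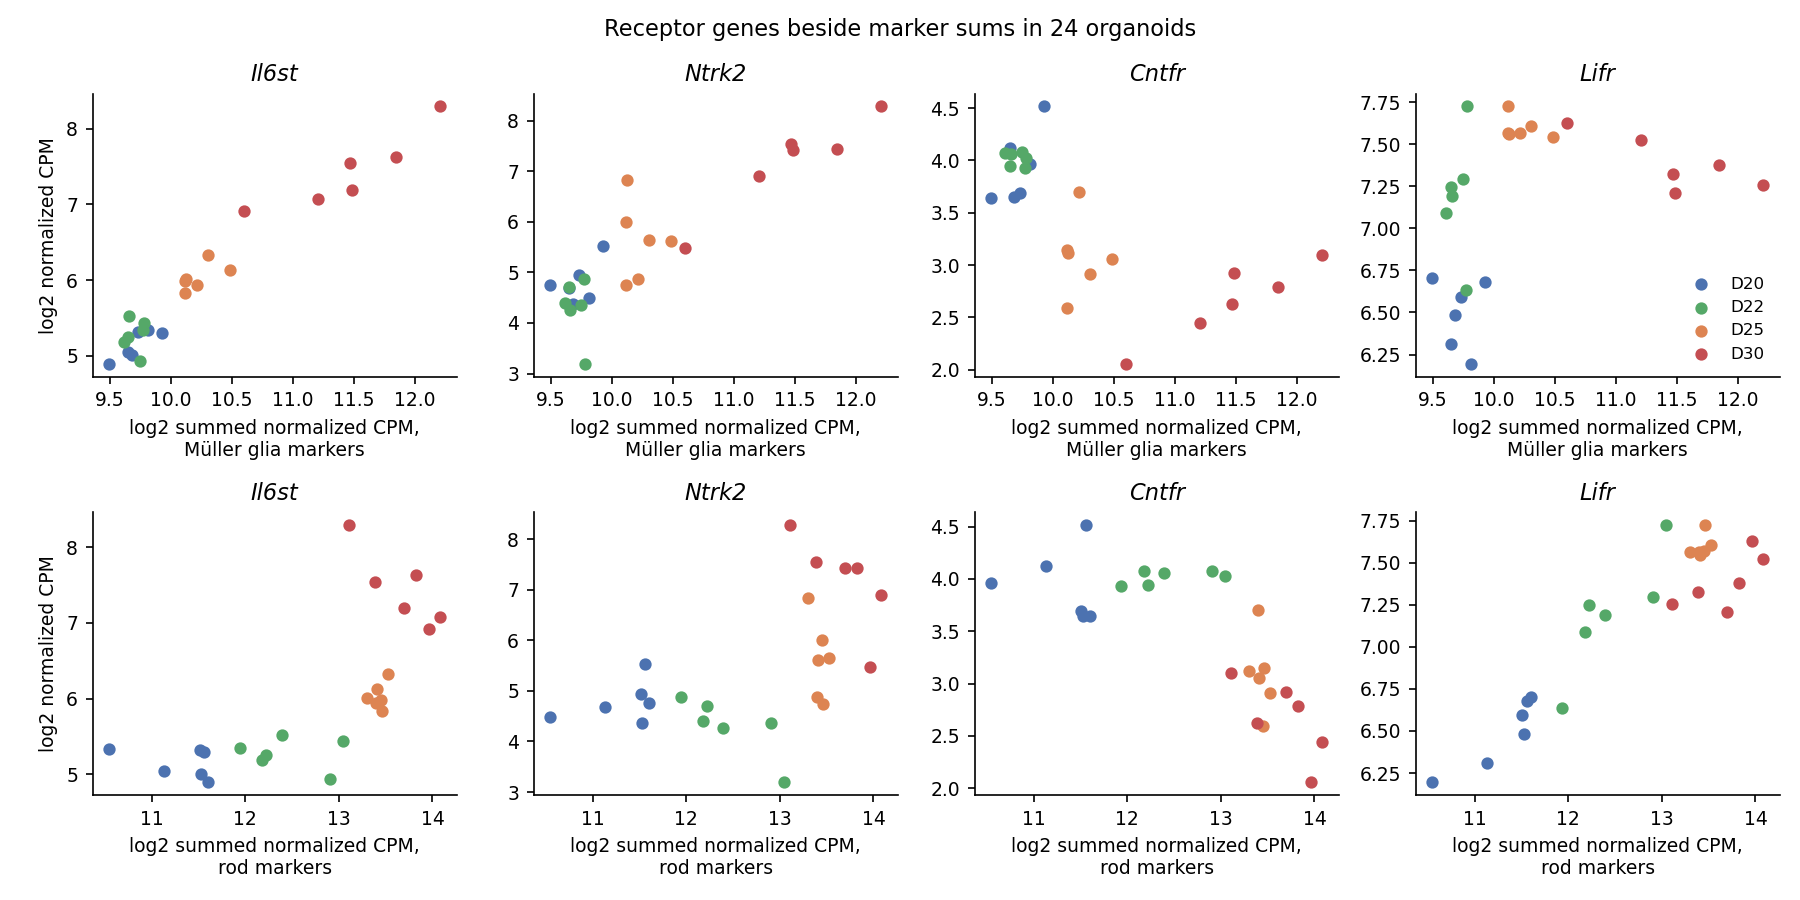
Log2 normalized CPM of Il6st, Ntrk2, Cntfr and Lifr (vertical axes) against the log2 summed normalized CPM of 11 Müller glia markers (upper row) and 8 rod markers (lower row), 1 point per organoid, coloured by timepoint. Il6st lies along the Müller glia sum, and Lifr rises with the rod sum between D20 and D25.

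Rod photoreceptor markers moved with Lifr between D20 and D25. All 8 of them rose from D20 to D30, and 7 of 8 rose from D20 to D22, the step in which Lifr was called. Their summed level had medians of 2932, 5082, 11032 and 13888 normalized CPM (1494 to 3102, 3923 to 8459, 10098 to 11807 and 8829 to 17356), with Pdc, the phosducin of photoreceptors, the most abundant by its mean at each timepoint, though not in every organoid, and none at 0 in every organoid. At D20 replicate 1 was lowest for both the rod sum (1494) and Lifr (73.2), and replicate 5 highest for both (3102 and 104). At D22 replicate 6 was lowest for both (3923 and 99.4) and replicate 3 highest (8459 and 212). Within D25 the organoids did not match in this way. The rod sum was highest in replicate 4 (11807) and lowest in replicate 1 (10098), while Lifr was highest in replicate 2 (211) and lowest in replicate 3 (187). At D30 the sum was 8829, 10709.6, 17356, 13277, 14499 and 16024 normalized CPM in replicates 1 to 6 and Lifr was 153, 160.1, 184, 148, 166 and 198, so replicates 3 and 6 were the highest 2 for both. From D25 to D30 the median sum went up while the change of Lifr was -0.20. All 9 retinal progenitor markers fell from D20 to D30, as did Cntfr, from a summed median of 1612 to 862, 534 and 333 normalized CPM. From D20 to D22, 4 of the 9 fell while the change of Cntfr was 0.05 (adjusted p = 0.925). D20 replicate 4 had the lowest progenitor sum of that day (1164) and the highest Cntfr (22.9). At D22 and D25 the organoids highest and lowest for the sum were not those highest and lowest for Cntfr. At D30 replicate 1 was highest for both (481 and 8.57), while the sum was lowest in replicate 3 (285) and Cntfr in replicate 6 (4.16). The most abundant progenitor gene was Top2a, a topoisomerase of dividing cells, and none was at 0. The part of rods or progenitors in the courses of Lifr and Cntfr was not tested.

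Markers of other cells that could supply or receive these factors were given the same look. The summed level of 8 markers of microglia and macrophages, a source of cytokines in tissue, was at most 1.31 normalized CPM in any organoid, with Csf1r the most abundant over all organoids and Tyrobp at 0 throughout. Of 8 endothelial cell markers, 3 were tested, of which 1 rose and 2 fell from D20 to D30, and nearly all of the sum came from Kdr, which retinal progenitors also express (median 269 of 273 normalized CPM at D20, and 175 of 177 at D30). Of 9 pericyte and fibroblast markers, 5 rose from D20 to D30, with summed medians of 18.6 and 75.4 normalized CPM at those days. Over all organoids the most abundant was Col3a1, a fibrillar collagen, which led at D25 and D30 but had a median of 0.523 at D20. Of 8 markers of Schwann cells and oligodendrocytes, 4 rose and 1 fell. Over all organoids the most abundant was Pdgfra, which led only at D30 (median 81.4, against 9.38 at D20), and their sum was highest in D30 replicate 1 (276) and lowest of D30 in replicate 6 (54.2). Of 5 pigment epithelium markers tested 1 rose and 1 fell. Over all organoids the most abundant of that list was Ttr, a thyroid hormone carrier, which led at D25 and D30 but had medians of 6.86 and 27.4 at D20 and D22. The sum at D30 was 2717 in replicate 2 and 2520 in replicate 6, against 33.5 to 478 in the other 4. The list for neurons of cerebral cortex type was led over all organoids by Slc17a7, a vesicular glutamate transporter that photoreceptors use as well, 1 of its 8 genes rose, and its sum was highest of D25 in replicate 1 (494), the D25 organoid with the highest Ntrk2. Of 7 bipolar cell markers tested, 6 rose and 1 fell from D20 to D30, of 7 ganglion cell markers 5 fell, and of 7 amacrine cell markers 2 rose. Over all organoids their most abundant genes were Pcp2, Nefl and Tfap2b, of which Pcp2 had medians of 96.5 at D20 and 34.3 at D30. The summed medians at the 4 timepoints were 125, 139.6, 157 and 341 for bipolar, 265, 144, 122 and 230.3 for ganglion and 141, 202, 297 and 234 normalized CPM for amacrine cell markers. Nefl was 79.6 at D20 and 169.8 at D30. Apart from Tyrobp, no gene of these lists was at 0 in every organoid.

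Around the 10 genes, 92 further genes of the same pathways were examined in 9 lists, of which 68 were tested. From D20 to D30, 30 of the 68 rose, beside 25.1% of annotated genes, and 8 fell, beside 16.7%, and their median log2 fold change was 0.47, against 0.10 over all annotated genes. The consecutive steps gave 2 genes up and 0 down from D20 to D22 (3.32% of annotated genes in either direction), 10 up and 0 down from D22 to D25 (10.2%), and 17 up and 1 down from D25 to D30 (7.38%). The counts of single lists from D20 to D30 stand beside 41.8% of annotated genes called in either direction, and no list was tested against it. With annotated genes only in scaling and test, the median change of all annotated genes shifted by -0.09 between D22 and D25 and by the same amount between D20 and D30.

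Among other cytokines and receptors that use gp130, 4 of 11 were tested and 1 was called. This was Osmr, the oncostatin M receptor chain, which had 12 counts in all 6 D20 organoids together and 13 at D22, against 175 at D25 and 934 at D30. Every D25 organoid, from 0.793 to 2.66 normalized CPM, was above every D22 organoid, the highest of which was at 0.599. Osmr rose by 3.53 from D22 to D25 (SE 0.61, adjusted p = 0.000256) and by 2.42 from D25 to D30 (SE 0.45, adjusted p = 0.000679), and over the whole interval by 6.06 (adjusted p = 2.2e-09).

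The JAK, STAT and SOCS genes lie downstream of gp130, and 6 of 12 tested genes of this list rose from D20 to D30 while none fell, with a median of 0.56. Stat3, the main transcription factor of this route, went from a median of 31.0 normalized CPM at D20 to 36.8, 61.6 and 116, and its D30 organoids (95.6 to 126) lay above those of D25 (57.1 to 66.2). From D20 to D30 the changes were 1.91 for Stat3 (adjusted p = 1.35e-14), 0.82 for the kinase Jak1 (9.13e-08) and 0.97 for Pias3, an inhibitor of STAT3 (3.83e-07). Stat5b (0.58) and the phosphatase gene Ptpn11 (0.55) rose as well. Pias3 was alone among these in rising from D20 to D22, by 0.97 (adjusted p = 2.65e-05).

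The list of cytokine response genes of retinal glia also holds genes of stressed photoreceptors. It moved more than any other pathway list by its median, 2.79 over 10 tested genes, of which 7 rose and 2 fell. Fgf2, a growth factor made by stressed photoreceptors and Müller glia, rose in all 3 steps, from a median of 0.890 normalized CPM at D20 to 1.99, 14.4 and 139.6. From D25 to D30 it rose by 3.13 (SE 0.28, adjusted p = 5.17e-09), with all D30 organoids (98.7 to 179) above all of D25 (13.2 to 22.0), and from D20 to D30 by 7.27. Over the same interval Gfap rose by 7.18 (SE 0.93, adjusted p = 3.04e-07), the protease inhibitor Serpina3n by 3.91 and the transcription factor Cebpd by 3.67. Edn2, an endothelin of stressed photoreceptors, was at 0 in all 6 D20 organoids and had 18 to 80 counts per organoid at D30, which makes it at least 13.2-fold higher if the D20 organoids stood at 3 counts. It had 272 counts over all organoids and was at 0 in 15 of them. Its base mean of 10.8 was near the minimum of 10, so it passed that filter through D30, the timepoint where it was high. Its place among the 10 tested and 7 risen genes of this list therefore depends on D30. Gfap is also an astrocyte marker, and the part of astrocytes, Müller glia or photoreceptors in these rises was not tested.

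In the other families the picture was mixed. Of 9 tested EGF family ligands and ERBB receptors 4 rose and 2 fell from D20 to D30, with a median of 0.20. The ligands Btc (2.58, SE 0.27, adjusted p = 6.72e-09), Tgfa (2.00) and Nrg3 (0.99) and the receptor Erbb4 (2.07) rose, while the receptors Erbb3 and Erbb2 changed by -1.88 and -0.80. Btc and Tgfa encode ligands of the EGF receptor, and Egfr itself was not called. Of 6 tested neurotrophins and their receptors only Ntrk3, which encodes TrkC, was called (1.77, adjusted p = 0.000432), and 2 were called with annotated genes only, without D30 replicate 3 and without D30 replicate 6. In the GDNF family 2 of 5 were called, the coreceptor Gfra4 (3.08, adjusted p = 5.48e-06) and the receptor kinase Ret (-1.33, adjusted p = 9.34e-05), and in the MANF family Cdnf was 1 of 2 (1.40, adjusted p = 0.00646), a call that was lost in 6 of 12 fits with an organoid left out.

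Among 13 RAS and MAPK genes downstream of receptor tyrosine kinases, which are feedback inhibitors and adaptors, 6 rose and 2 fell with a median of 0.07, and 5 in place of 8 were called with the compared timepoints only. The EGF receptor antagonists Lrig1 (1.97, adjusted p = 1.53e-08) and Errfi1 (0.62) and the Sprouty genes Spry4 (1.47) and Spry2 (1.11) rose, while the adaptor Shc1 and the phosphatase Dusp4 changed by -0.73 and -0.68. Of 9 tested proteases that process ligands 4 rose and 1 fell, with a median of 0.78. The proprotein convertase Pcsk1 had 6 counts in total at D20 and 491 at D30 (6.05, SE 0.82, adjusted p = 6.15e-07). Over all organoids it had 565 counts, so it passed the base mean filter through D30, the timepoint where it was high. Pcsk6 rose by 4.01, the plasminogen activator Plat by 1.10 and the sheddase Adam9 by 1.02 (SE 0.09, adjusted p = 8.4e-11). The metalloproteinase Mmp2 changed by -1.58.

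The genes most like each member over the 24 organoids are given as a description, by Pearson correlation among 10830 annotated genes and without a test, since all 24 points share the timepoints and the experiment. For Il6st they were Gpam (r = 0.980), Apoe (0.975) and the prion gene Prnp (0.972), and for Ntrk2 they were Lsamp (0.969), Reep5 (0.968) and Plpp3 (0.961). For Lifr they included Nrl, the transcription factor of rods (0.966), and Pitpnm3 (0.963). Cntfr was most like Abl1 (0.933), Adam11 (0.918) and Ddr1 (0.910), Bdnf most like Vwa5a (0.900), Frem2 (0.896) and Mcc (0.893), and Egfr most like Tcf4 (0.879), Nmt2 (0.832) and Zeb2 (0.831). The partners of Cntf and Hbegf had lower values, with Mfap3l (0.816) and D16Ertd472e (0.794) for Cntf and Fbxo22 (0.779), Exog (0.762) and Poldip3 (0.759) for Hbegf.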

How the data were processed

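Total RNA of 24 individual organoids was measured, with 6 per timepoint. The values used are raw counts per feature that the authors deposited, 1 file per organoid, and per the submitters' processing notes they were made with bcl2fastq 2.20, FastQC 0.11.2, cutadapt 1.5, HISAT2, SAMtools 1.1, StringTie 1.3.3 and HTSeq 0.6.1. The lines for unassigned reads were kept out of library sizes, and reads in no feature were 37.5% to 48.9%. Gene names, coordinates and lengths came from the GENCODE annotation of GRCm38.

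Features with a DESeq2 (1.42.0) base mean of at least 10 went into edgeR 4.0.16 quasi-likelihood F tests in R 4.3.3 after TMM scaling, in 1 fit of all organoids, with p adjusted by Benjamini-Hochberg over all 46949 tested features. The common biological coefficient of variation was 0.385. Of all features 894, 2478, 1647 and 12592 were called in D22 against D20, D25 against D22, D30 against D25 and D30 against D20, and 12767 in the joint test.

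The members and lists were chosen with earlier results of these data known. Genes named are all members and, of each pathway list, those called from D20 to D30, or the 6 with the largest change where more were called. For each tested member the 3 genes with the highest Pearson correlation and, of each marker list, the most abundant gene are also named. Some genes under these rules are not shown. Alternatives were another test, other scaling factors, other filters, annotated genes only, a replicate block, the compared timepoints alone, each organoid left out, transcript length and rank correlation.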

Additional observations from a re-analysis of the deposited data

Results flagged for a closer look

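In 4 of 39 groups of 6 organoids looked at, 1 organoid stood far from the other 5 by Dixon's ratio. Chance alone flags about 1 in 20 groups of normally distributed values, a rate that may not hold here, least for genes near 0 counts. Cntf stood at 1.75 normalized CPM (25 counts) in D20 replicate 1, against 0.269 to 0.768 in the others. Lifr stood at 211 in D25 replicate 2, against 187 to 195. Egfr stood at 55.4 in D30 replicate 1, against 7.82 to 24.7. Gdnf stood at 0.33 in D20 replicate 4, which is 5 counts, against 0 in the others, where the ratio is 1 whatever the count. The causes were not tested.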

How the results depend on the processing

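The number of members called stayed at 1 from D20 to D22, 2 to 3 from D22 to D25, 3 from D25 to D30, 5 to 6 from D20 to D30 and 5 to 6 in the joint test when each organoid was left out in turn. Pathway genes called from D20 to D22 went from 2 to 4 with DESeq2 and to 4 with the compared timepoints only, and to between 1 and 3 with an organoid left out, and from D22 to D25 from 10 to between 6 and 10. All features called from D20 to D22 went from 894 to 1605 with DESeq2 and to between 444 and 1332 with an organoid left out (499 without D20 replicate 1, 570 without D22 replicate 2, 444 without D22 replicate 3), and from D22 to D25 from 2478 to between 1580 and 2864. With annotated genes only, where fewer features are tested, 7322 were called from D20 to D30 and 7627 in the joint test.

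Some changes near 0 reversed. Egfr from D22 to D25 was -0.0795 and from D20 to D30 -0.0727 with annotated genes only. With an organoid left out, Cntf from D22 to D25 ranged from -0.38 to 0.12, Cntfr from D20 to D22 from -0.00547 to 0.192, Hbegf from D22 to D25 from -0.28 to 0.27, Egfr from D22 to D25 from -0.0716 to 0.158 and Egfr from D20 to D30 from -0.36 to 0.24. Cntf from D25 to D30 passed with DESeq2 (adjusted p = 0.00375), and its joint call was lost without a filter (0.0233), with the edgeR filter (0.0101) and in 14 of 24 fits with an organoid left out. The causes were not tested.

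The organoids of different timepoints share only a replicate number, and 36 pairs with the same number had a median correlation of -0.0156 (5 over 0.1), with 4 of 24 organoids best with their own number. With the replicate number as a block, 1, 3, 3, 6 and 5 members and 823, 2221, 1492, 12254 and 12126 features were called. Under this block Hbegf from D22 to D25 was 0.0299, Egfr from D20 to D30 was -0.0792, Hbegf from D20 to D30 passed (adjusted p = 0.00695) and the joint call of Cntf did not (0.0144).

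With annotated genes only, which changes both the scaling and the number of features over which p is adjusted, genes called up and down were 1025 and 970.0 in place of 1191 and 474 from D22 to D25, 742 and 739 in place of 739 and 460.0 from D25 to D30, and 3776 and 3537 in place of 4078 and 2712 from D20 to D30. Of the 3 genes most like each member, rank correlation kept 1 for Bdnf, Ntrk2, Cntfr, Il6st and Hbegf, 2 for Cntf and 0 for Lifr and Egfr. Depth limits Cntf, Lif and Gdnf, which had few counts.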
